A study of Arabidopsis thaliana with 8 samples.

Results

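The nuclear genes that encode proteins of the 2 photosystems and of the electron transport chain between and behind them were followed in Arabidopsis seedlings after ethanol. The members are 31 loci of 21471 genes tested. They were chosen by locus from the gene products' place in the thylakoid, with earlier results of these data known: 12 genes of photosystem I, 10 of photosystem II, the quenching gene PSBS, 6 electron carriers and 2 subunits of the chloroplast ATP synthase. All 31 loci were matched by 81 probes. Every one of those probes passed the filter on dim signals, and a gene is represented by its brightest probe. The inducible line, Alc::LHY, is in the Col-0 background and carries a copy of the clock gene LHY behind a promoter that alcohol switches on. The comparison line was wild-type Col-0. Both lines were grown as seedlings for 2 weeks in a 12 h photoperiod, moved to constant light and treated with ethanol 17 h later, through the roots and as vapour. Seedlings of both lines were collected at 0, 2 and 4 h and, in a last sample here called 8-9 h, at 8 h in replicate I and 9 h in replicate S. The labels do not say how many transgenic lines stand behind Alc::LHY, and no group has the ethanol switch without the additional LHY copy, so effects of the 2 cannot be told apart.

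Each of the 8 arrays carried RNA of both lines in 2 dyes, with 2 arrays per time, replicates S and I. Alc::LHY RNA was in Cy5 in replicate S and in Cy3 in replicate I, so replicate and dye orientation are the same split. The fitted model has a dye term. Every line ratio below is a log2 value with the Alc::LHY signal above and the wild-type signal beneath, given with the standard error of that fit. A gene is called when its limma p, Benjamini-Hochberg adjusted over all 21471 genes, is under 0.05. Whether replicates S and I were grown apart is not in the labels. The p-values therefore reflect only how far these arrays spread, which may be technical.

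Photosystem II uses light to take electrons from water at a manganese cluster on the lumenal side of the thylakoid, where the extrinsic proteins PSBO, PSBP and PSBQ shield it. Electrons pass through the cytochrome complex that holds the Rieske protein PETC, then by plastocyanin to photosystem I, and from there by ferredoxin to ferredoxin-NADP+ oxidoreductase. The protons moved on the way drive the ATP synthase. Many of the nuclear genes for these proteins are light-induced and have daily rhythms in leaves, and LHY encodes a clock transcription factor with a MYB domain that peaks around dawn.

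LHY itself (AT1G01060) was read by a dim probe. Its replicate S array of 2 h read 0.97 and its replicate I array 0.17, and Alc::LHY stood at least 1.49-fold above wild type, in which the probe was not well above background (adjusted p = 0.0301). At 4 h the ratio was 0.38 (adjusted p = 0.0534). Dropping the dye term ended the 2 h call (adjusted p = 0.113), as did median centring (adjusted p = 0.243). Leaving out replicate S of 2 h ended it too (0.30, adjusted p = 0.424), as did leaving out replicate I (0.84, adjusted p = 0.0583). The scanner software's own ratios put LHY at 2.51 at 2 h (adjusted p = 0.00169) and 1.18 by 4 h (adjusted p = 0.00615). The seedling label was checked with marker genes: all 6 green tissue markers were measured and bright, and 8 of 9 root markers were measured. In such bulk RNA, fewer green cells and less RNA per cell cannot be told apart. The log2 summed level of the 6 green markers at 4 h was 18.35 and 17.74 in Alc::LHY, against 18.62 and 19.15 in wild type (replicates S and I). At 0 h it was 18.46 and 18.40 in Alc::LHY, against 18.10 and 18.73 in wild type. The root markers at 0 h summed to 13.19 and 13.54 in Alc::LHY, against 13.39 and 13.25 in wild type. These sums were not adjusted by the dye term. The root markers at 4 h summed to 12.62 and 12.70 in Alc::LHY, against 13.27 and 13.30 in wild type. At 2 h the root markers summed to 13.28 and 13.14 in Alc::LHY, against 12.94 and 12.35 in wild type, and the green markers to 18.48 and 18.02 in Alc::LHY, against 18.18 and 18.67 in wild type. Of the 8 root markers, 4 were called lower at 4 h and SHV2 was called higher (1.70, adjusted p = 0.00477), against 19.4% of all genes lower and 17.3% higher. At 2 h 2 root markers were called lower and 3 higher, while 3043 of all 21471 genes were called, 1678 of them lower. THAS1 was among the 3 at 1.28, and among the 4 lower at 4 h at -1.11. At 8-9 h the sums were 18.71 and 17.86 in Alc::LHY, against 18.86 and 19.26 in wild type, for the green markers, and 12.59 and 12.62 in Alc::LHY, against 13.03 and 13.07 in wild type, for the root markers. The part of organ or cell composition in the results below was not tested.

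Of the 31 photosystem and electron transport genes, 23 were lower in Alc::LHY than in wild type at 4 h, at 8-9 h or at both, while 24.5% of all genes were. None of the 31 was called at 0 h (limma; 1 of them had an unadjusted p under 0.05). At 0 h, 0.014% of all genes were called. At 2 h, 2 of the 31 members were called lower, while 7.82% of all genes were. They were the plastocyanin gene PETE1 and the photosystem I gene PSAD2. At an unadjusted p under 0.05, 8 members were lower at 2 h. Leaving out either 2 h array gave 0 calls at 2 h, and leaving out any other array 1. At 4 h, 16 members were called lower and 2 higher, against 19.4% of all genes lower and 17.3% higher. At 8-9 h, 21 members were called lower and none higher, against 20% of all genes lower. The median ratio of the members was 0.09 at 0 h, -0.14 at 2 h, -0.42 at 4 h and -0.48 at 8-9 h, while the median of all genes stayed between -0.01 and 0.01. The fitted ratio was below 0 for 26 members at 2 h, 26 at 4 h and 30 at 8-9 h. Of the members called lower, 14 were called at both 4 h and 8-9 h. PSAH1 and PSAK were called lower at 4 h and not at 8-9 h, and PSAE1, PSBS, PSBX, PSBTN, PETE2, FED2 and LFNR2 at 8-9 h and not at 4 h; the test of the change between those times called no member.

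These counts depended on the normalization and on single arrays. Median centring of each array, used instead of loess, called 0, 1 (PETE1) and 0 members lower at 2, 4 and 8-9 h, with member medians of -0.70, -0.80 and -0.38 and medians of all genes of -0.12, -0.10 and 0.11. It called 0, 1101 and 68 of all 21471 genes lower. Averaging the probes of each gene called 3, 17 and 25 members lower at those times, and 1 higher at 4 h. With that averaging 1555, 4087 and 4215 of all 21471 genes were lower. Without the replicate S array of 4 h, 5 members were called lower at that time (PSAD2, PSAH2, PSBQ2, PETE1 and ATPD), and without the replicate I array 6 (PSAD2, PSBQ1, PSBQ2, PSBY, PETE1 and ATPD), with member medians of -0.35 and -0.42. At 8-9 h, 12 were called lower without replicate S and 1, PSBQ2, without replicate I. The member median at 8-9 h was -0.67 without replicate S and -0.31 without replicate I, and that of all genes -0.0125 and -0.0001. Fewer of all genes were called lower in each of these leave-out fits as well. The counts therefore mix a general loss of calls with any loss of the members' excess. On single arrays the members had medians of -0.23 (S) and -0.61 (I) at 4 h, and of -0.19 (S) and -0.80 (I) at 8-9 h. Set against each replicate's own 0 h array, 25 of 31 members were lower on both arrays at 4 h and 28 of 31 at 8-9 h, while 35.8% and 37.3% of all genes were.

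**Figure D1:**
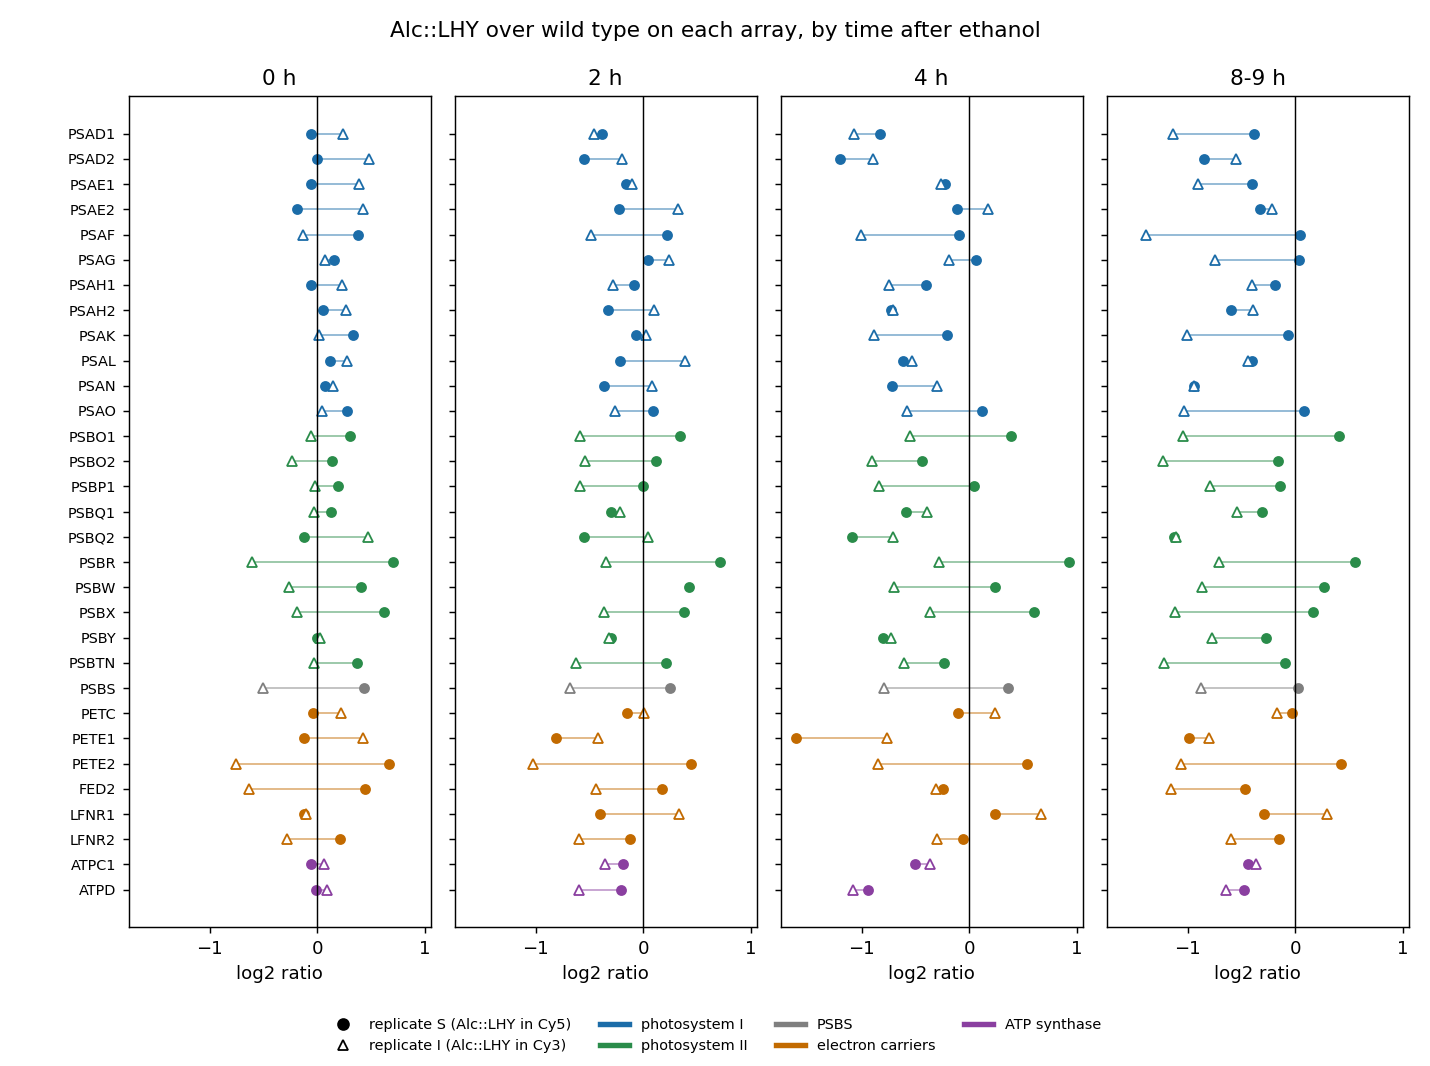
Log2 ratio of Alc::LHY over wild type for each of the 31 genes on each array, in panels by time after ethanol. Filled circles are replicate S, open triangles replicate I, a line joins the pair, and colour gives the role of the gene. At 4 h and 8-9 h most pairs lie left of 0, while genes such as PSBR and PETE2 have circle and triangle on opposite sides of 0 at every time, the 0 h arrays included.

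In photosystem I most subunit genes were lower. At 4 h, 8 of its 12 genes were called lower (median -0.55), and at 8-9 h 7 of 12 (median -0.51), against 19.4% and 20% of all genes. PSAD2 (AT1G03130) encodes an isoform of the stromal subunit at which ferredoxin docks, and it had the smallest p of the group at 4 h. Its ratio in replicates S and I was -0.01 and 0.48 at 0 h, -0.55 and -0.20 at 2 h, -1.20 and -0.89 at 4 h, and -0.85 and -0.55 at 8-9 h. All 6 arrays after ethanol lay below 0 and below both 0 h arrays. The fitted ratio was -0.37 ± 0.09 at 2 h (adjusted p = 0.0414), -1.05 ± 0.09 at 4 h (2.07-fold lower, adjusted p = 0.000628) and -0.70 ± 0.09 by 8-9 h (adjusted p = 0.00208). The 2 h call was kept in 4 of 16 alternative settings.

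Its paralogue PSAD1 (AT4G02770), read by a brighter probe, followed the same course. The ratios of PSAD1 in S and I were -0.06 and 0.24 at 0 h, -0.38 and -0.46 at 2 h, -0.83 and -1.07 at 4 h, and -0.38 and -1.13 at 8-9 h. The fitted ratio was -0.95 ± 0.17 at 4 h (adjusted p = 0.00658) and -0.76 ± 0.17 by 8-9 h (adjusted p = 0.0146). The arrays after ethanol again did not overlap those of 0 h. How much of the signal of such near-identical copies comes from cross-hybridisation cannot be told apart here.

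The genes of the other ferredoxin-side subunit, PSAE, gave smaller values. For PSAE1 (AT4G28750) the ratios in S and I were -0.06 and 0.39 at 0 h, -0.16 and -0.10 at 2 h, -0.23 and -0.26 at 4 h, and -0.40 and -0.90 at 8-9 h. It was called at 8-9 h (-0.65 ± 0.16, adjusted p = 0.0193). PSAE2 (AT2G20260) stood at -0.19 and 0.42 at 0 h, -0.22 and 0.33 at 2 h, -0.11 and 0.17 at 4 h, and -0.33 and -0.22 at 8-9 h. It was called at no time (adjusted p = 0.865 at 4 h and 0.117 at 8-9 h), and its arrays of 0, 2 and 4 h overlap. The difference between the copies was not tested.

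PSAH and PSAL form the side of photosystem I to which mobile antenna proteins bind in state transitions. PSAH2 (AT1G52230) had ratios in S and I of 0.05 and 0.27 at 0 h, -0.33 and 0.10 at 2 h, -0.73 and -0.70 at 4 h, and -0.60 and -0.39 at 8-9 h. It was called lower at 4 h (-0.72 ± 0.10, adjusted p = 0.00299) and 8-9 h (-0.49 ± 0.10, adjusted p = 0.0114). PSAH1 (AT3G16140) gave -0.06 and 0.22 at 0 h, -0.09 and -0.28 at 2 h, -0.40 and -0.74 at 4 h, and -0.19 and -0.40 at 8-9 h, with a call at 4 h (-0.57 ± 0.13, adjusted p = 0.0144). On both PSAH genes the arrays of 4 h and 8-9 h were below those of 0 h without overlap. PSAL (AT4G12800) was called lower at 4 h and 8-9 h (-0.57 ± 0.13 and -0.42 ± 0.13), and its other, dimmer probe gave -0.48 and -0.50.

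The subunits on the plastocyanin side, PSAN and PSAF, differed in how close their replicate arrays lay. PSAN (AT5G64040) had the lowest photosystem I ratio at 8-9 h, -0.94 on each array (-0.94 ± 0.12, 1.92-fold lower, adjusted p = 0.00175), and -0.51 ± 0.12 at 4 h. PSAF (AT1G31330), a very bright probe, was called at 4 h and 8-9 h (-0.55 ± 0.16 and -0.67 ± 0.16), but its arrays read -0.10 and -1.01 at 4 h and 0.04 and -1.39 at 8-9 h. PSAK (AT1G30380) and PSAG (AT1G55670) bind the photosystem I antenna. PSAK was called at 4 h at the edge of the threshold (-0.55 ± 0.17, adjusted p = 0.0486, kept in 7 of 16 alternative settings) and PSAG at no time (-0.06 at 4 h, -0.36 at 8-9 h). The 3 dimmer probes of PSAG were called lower at 8-9 h in a fit over probes (-0.48, -0.59 and -0.49), and 2 of them at 4 h (-0.38 and -0.36). PSAO (AT1G08380), a small subunit used in state transitions, was not called either (-0.23 at 4 h, -0.48 at 8-9 h, adjusted p = 0.298 and 0.0577), while its other probe gave -0.49 and -0.57 and was called at both times in the fit over probes (adjusted p = 0.0191 and 0.0105).

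In photosystem II, 5 of 10 genes were called lower and 1 higher at 4 h (median -0.41), against 19.4% and 17.3% of all genes. At 8-9 h 7 of 10 were lower (median -0.47), against 20% of all genes. The extrinsic protein genes of photosystem II are PSBO, PSBP and PSBQ. PSBQ2 (AT4G05180) had ratios in S and I of -0.12 and 0.47 at 0 h, -0.55 and 0.05 at 2 h, -1.09 and -0.71 at 4 h, and -1.13 and -1.11 at 8-9 h. Its arrays from 4 h on lay below all of the earlier ones. The fitted ratio was -0.90 ± 0.13 at 4 h (adjusted p = 0.00275) and -1.12 ± 0.13 by 8-9 h (2.17-fold lower, adjusted p = 0.0013), and the 8-9 h value was the lowest of the 31 genes at that time. PSBQ1 (AT4G21280), the paralogue, read 0.13 and -0.03 at 0 h, -0.30 and -0.22 at 2 h, -0.58 and -0.40 at 4 h, and -0.31 and -0.54 at 8-9 h. It was called at 4 h (-0.49 ± 0.11, adjusted p = 0.0149) and also at 8-9 h (-0.42 ± 0.11, adjusted p = 0.0242), with no overlap of the arrays after ethanol with those before.

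PSBO stabilises the manganese cluster. PSBO2 (AT3G50820) had ratios in S and I of 0.14 and -0.23 at 0 h, 0.11 and -0.54 at 2 h, -0.44 and -0.91 at 4 h, and -0.16 and -1.23 at 8-9 h. It was called lower at 4 h (-0.67 ± 0.13, adjusted p = 0.01) and 8-9 h (-0.69 ± 0.13, adjusted p = 0.00864). At 8-9 h its replicate S array lay between the 0 h arrays. The other, dimmer probe of PSBO2 gave -0.03 at 4 h and -0.49 at 8-9 h. It was called at neither time in the fit over probes. PSBO1 (AT5G66570), the brightest of the 31 genes, read 0.31 and -0.06 at 0 h, 0.34 and -0.59 at 2 h, 0.39 and -0.55 at 4 h, and 0.41 and -1.04 at 8-9 h. Its replicates moved apart rather than together, and it was called at no time (-0.08 ± 0.17 at 4 h, -0.32 ± 0.17 at 8-9 h, adjusted p = 0.75 and 0.195). Its other probes, called in a fit over probes at 8-9 h, gave -0.43 and -0.42 there. PSBP1 (AT1G06680), the third extrinsic protein, was called at 4 h at the edge (-0.40 ± 0.13, adjusted p = 0.0498) with 0.04 and -0.84 on its arrays, and at 8-9 h (-0.47 ± 0.13). Its 4 h call was kept in 4 of 16 alternative settings. Its 4 other probes gave -0.60 to -0.72 at 4 h and were all called lower there in the fit over probes.

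PSBR (AT1G79040), a small protein that anchors PSBP, went the other way at 4 h. Its ratios in S and I were 0.70 and -0.60 at 0 h, 0.71 and -0.34 at 2 h, 0.92 and -0.28 at 4 h, and 0.55 and -0.70 at 8-9 h, so the arrays of a time lie far apart and on opposite sides of 0. After the dye term the ratio was 0.32 ± 0.09 at 4 h (1.25-fold higher, adjusted p = 0.0375) and -0.08 at 8-9 h. Against its own 0 h array each replicate was higher at 4 h, by 0.22 in S and 0.32 in I, and all 4 probes of PSBR gave between 0.25 and 0.50. The call was kept in 6 of 16 alternative settings, and median centring turned the value to -0.10 (adjusted p = 0.893).

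Among the small membrane and lumenal subunits, PSBY (AT1G67740) was called lower at 4 h (-0.77 ± 0.13, adjusted p = 0.00481) and 8-9 h (-0.52 ± 0.13), but 1 of its 2 other probes gave 0.85 at 4 h and the mean of its probes was 0.03. That probe was called higher at 4 h in the fit over probes, and the remaining one gave -0.004 and was not called. PSBX (AT2G06520) and PSBTN (AT3G21055) were called at 8-9 h (-0.48 ± 0.12 and -0.66 ± 0.15, adjusted p = 0.0211 and 0.0159). PSBX read 0.16 and -1.12 on its arrays at that time and PSBTN -0.09 and -1.22, so replicate I carried most of both differences. PSBW (AT2G30570), which stabilises antenna supercomplexes, was called at no time (-0.23 at 4 h, -0.30 at 8-9 h). In the fit over probes 2 of its dimmer probes were called lower at 8-9 h (-0.37 and -0.51), and 1 of them at 4 h (-0.35). The brightest probe's replicate I spot at 2 h had an outlier flag and was left out, so its 2 h ratio rests on 1 array.

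PSBS (AT1G44575), which switches the photosystem II antenna to heat dissipation in strong light, had ratios in S and I of 0.43 and -0.50 at 0 h, 0.25 and -0.68 at 2 h, 0.36 and -0.79 at 4 h, and 0.02 and -0.88 at 8-9 h. The pair straddled 0 at every time. With the dye term it was called at 8-9 h (-0.43 ± 0.09, adjusted p = 0.0142) and not at 4 h (-0.22 ± 0.09, adjusted p = 0.118), where its other probe gave 0.44.

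Of the 6 electron carriers, 1 was called lower and 1 higher at 4 h (median -0.17), while 19.4% of all genes were lower and 17.3% higher. At 8-9 h 4 of 6 were lower (median -0.35), against 20% of all genes. PETE1 (AT1G76100), the less abundant plastocyanin in textbook accounts of leaves, had the lowest ratio of all 31 genes at 4 h. Its values in S and I were -0.12 and 0.42 at 0 h, -0.81 and -0.42 at 2 h, -1.61 and -0.76 at 4 h, and -0.98 and -0.80 at 8-9 h. Every array after ethanol lay below both 0 h arrays. The fitted ratio was -0.61 ± 0.13 at 2 h (adjusted p = 0.0257), -1.19 ± 0.13 at 4 h (2.28-fold lower, adjusted p = 0.00117) and -0.89 ± 0.13 by 8-9 h (adjusted p = 0.00293). Its 4 h call was kept in 16 of 16 alternative settings, with adjusted p between 0.00092 and 0.0385.

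PETE2 (AT1G20340), the major plastocyanin, had its replicates on opposite sides of 0 at every time, 0 h included. Its ratios in S and I were 0.67 and -0.75 at 0 h, 0.44 and -1.02 at 2 h, 0.54 and -0.85 at 4 h, and 0.43 and -1.06 at 8-9 h. It was called lower at 8-9 h (-0.32 ± 0.09, adjusted p = 0.0312), with 0.04 from the scanner software's own ratio, and not at 4 h (-0.16, adjusted p = 0.207). Its 3 other probes gave -0.36 to -0.49 at 4 h and were all called lower there in the fit over probes (adjusted p = 0.0169, 0.0176 and 0.00386). PETC (AT4G03280), the Rieske iron-sulfur protein, was called at no time (-0.08, 0.06 and -0.10 at 2, 4 and 8-9 h). FED2 (AT1G60950), the main leaf ferredoxin, was called at 8-9 h (-0.81 ± 0.16, 1.75-fold lower, adjusted p = 0.0103), with -0.46 and -1.16 on its arrays, and stood at -0.28 at 4 h.

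The leaf ferredoxin-NADP+ oxidoreductases, which pass electrons to NADP+, are LFNR1 and LFNR2. LFNR1 (AT5G66190) had ratios in S and I of -0.12 and -0.11 at 0 h, -0.40 and 0.33 at 2 h, 0.23 and 0.67 at 4 h, and -0.29 and 0.29 at 8-9 h. Both 4 h arrays were above both 0 h arrays, and LFNR1 was called higher at 4 h (0.45 ± 0.14, 1.37-fold, adjusted p = 0.0411), a call kept in 5 of 16 alternative settings. With any array of 2, 4 or 8-9 h left out, neither PSBR nor LFNR1 was called higher at 4 h. All 5 LFNR1 probes were above 0 at 4 h, between 0.12 and 0.55. LFNR2 (AT1G20020), the dimmest of the 31, read 0.21 and -0.28 at 0 h, -0.13 and -0.60 at 2 h, -0.06 and -0.30 at 4 h, and -0.15 and -0.60 at 8-9 h, and was called lower at 8-9 h (-0.38 ± 0.10, adjusted p = 0.0226). At 4 h LFNR2 was at -0.18 (adjusted p = 0.185), and the difference between the copies was not tested. Its arrays overlap those of 0 h at 2, 4 and 8-9 h.

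Both ATP synthase genes among the members were called lower at 4 h and 8-9 h, against 19.4% and 20% of all genes. A gamma subunit gene outside the members, ATPC2 (AT1G15700), was called higher at both times (0.45 and 0.72). ATPD (AT4G09650), the delta subunit that links the catalytic head to the stalk, had ratios in S and I of -0.01 and 0.09 at 0 h, -0.21 and -0.60 at 2 h, -0.94 and -1.08 at 4 h, and -0.48 and -0.64 at 8-9 h. The fitted ratio was -0.40 ± 0.11 at 2 h (adjusted p = 0.0576), -1.01 ± 0.11 at 4 h (2.01-fold lower, adjusted p = 0.00119) and -0.56 ± 0.11 by 8-9 h (adjusted p = 0.00911). All arrays after ethanol were below those of 0 h. ATPC1 (AT4G04640), the gamma subunit of the rotor, was -0.43 ± 0.10 at 4 h (adjusted p = 0.0161) and -0.40 ± 0.10 by 8-9 h (adjusted p = 0.0205). Its other, dimmer probe gave -0.42 at 4 h and -0.26 at 8-9 h. In the fit over probes that probe was called at 4 h and not at 8-9 h.

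Whether a ratio came with a change in Alc::LHY or in wild type was asked from the levels of each dye after normalization between arrays, for 30 of the 31 genes (PSBW lacks a value on 1 array). In Alc::LHY 4, 5 and 7 members were lower at 2, 4 and 8-9 h than at 0 h, and none was higher, while 7.52%, 14.4% and 16.7% of all genes were lower. In wild type no member was called at 2 or 4 h, when 0.056% and 0.808% of all genes were called in either direction, and at 4 h 10 members had an unadjusted p under 0.05 (0 at 2 h). At 8-9 h, 6 were higher and 2 lower in wild type, against 2.34% and 1.46% of all genes. Over the times, 9 of 30 members fell in Alc::LHY at 1 or more of them, while 20% of all genes did. Whether a member's change differed between the lines is tested by the line ratio relative to 0 h, not by these counts. The median change of the members at 8-9 h was -0.23 in Alc::LHY and 0.39 in wild type. Time since ethanol and time of day run together in both lines and cannot be told apart.

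The 6 that rose in wild type at 8-9 h were PSAD2, PSAF, PSAH2, PSAN, PSBQ2 and PSBY. The log2 level of PSAD2 was 12.13 ± 0.63, 11.67 ± 0.62, 11.73 ± 0.59 and 12.56 ± 0.17 in Alc::LHY at 0, 2, 4 and 8-9 h, against 11.90 ± 0.29, 12.04 ± 0.37, 12.78 ± 0.37 and 13.26 ± 0.05 in wild type (SD, n = 2). Within Alc::LHY its change at 8-9 h was 0.43 ± 0.17 (adjusted p = 0.0804), and within wild type 1.36 ± 0.17, or 2.57-fold (adjusted p = 0.00358). PSBQ2 changed by -0.27 ± 0.18 in Alc::LHY (adjusted p = 0.28) and rose by 1.02 ± 0.18 in wild type (adjusted p = 0.0174). PSAN and PSAH2 rose by 0.88 ± 0.15 and 0.84 ± 0.12 in wild type, with -0.17 and 0.18 in Alc::LHY. These wild-type calls depended on single arrays: the members called in wild type at any time were 8 with all arrays and 1 without either array of 0 h or without replicate S of 8-9 h, and 5 without replicate I of 8-9 h.

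The 9 that fell in Alc::LHY were PSAD1, PSBO2, PSBX, PSBTN, PETE1, ATPC1, ATPD, LFNR1 and LFNR2. The log2 level of PETE1 was 13.57 ± 0.40, 12.91 ± 0.38, 12.45 ± 0.53 and 13.07 ± 0.15 in Alc::LHY at 0, 2, 4 and 8-9 h, against 13.42 ± 0.02, 13.53 ± 0.11, 13.64 ± 0.07 and 13.96 ± 0.02 in wild type (SD, n = 2). Within Alc::LHY PETE1 fell at all times, most at 4 h (-1.12 ± 0.14, adjusted p = 0.000632). ATPD fell at 2 and 4 h (-0.42 ± 0.12 and -0.75 ± 0.12, adjusted p = 0.0449 and 0.0019), and ATPC1 at 2, 4 and 8-9 h (-0.42, -0.63 and -0.62). Without replicate I of 0 h, 4 members in place of 9 were called lower in Alc::LHY.

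The oxidoreductase genes fell in both lines. LFNR2 had a mean log2 level of 10.55 at 0 h and 9.21 at 8-9 h in Alc::LHY (adjusted p = 0.000113), against 10.59 and 9.59 in wild type (adjusted p = 0.00364). LFNR1 changed by -0.70 ± 0.16 in Alc::LHY and -0.82 ± 0.16 in wild type (adjusted p = 0.00856 and 0.026). At 4 h LFNR1 stood at -0.25 in Alc::LHY and -0.82 in wild type relative to 0 h (adjusted p = 0.279 and 0.0567), neither of them called.

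**Figure D2:**
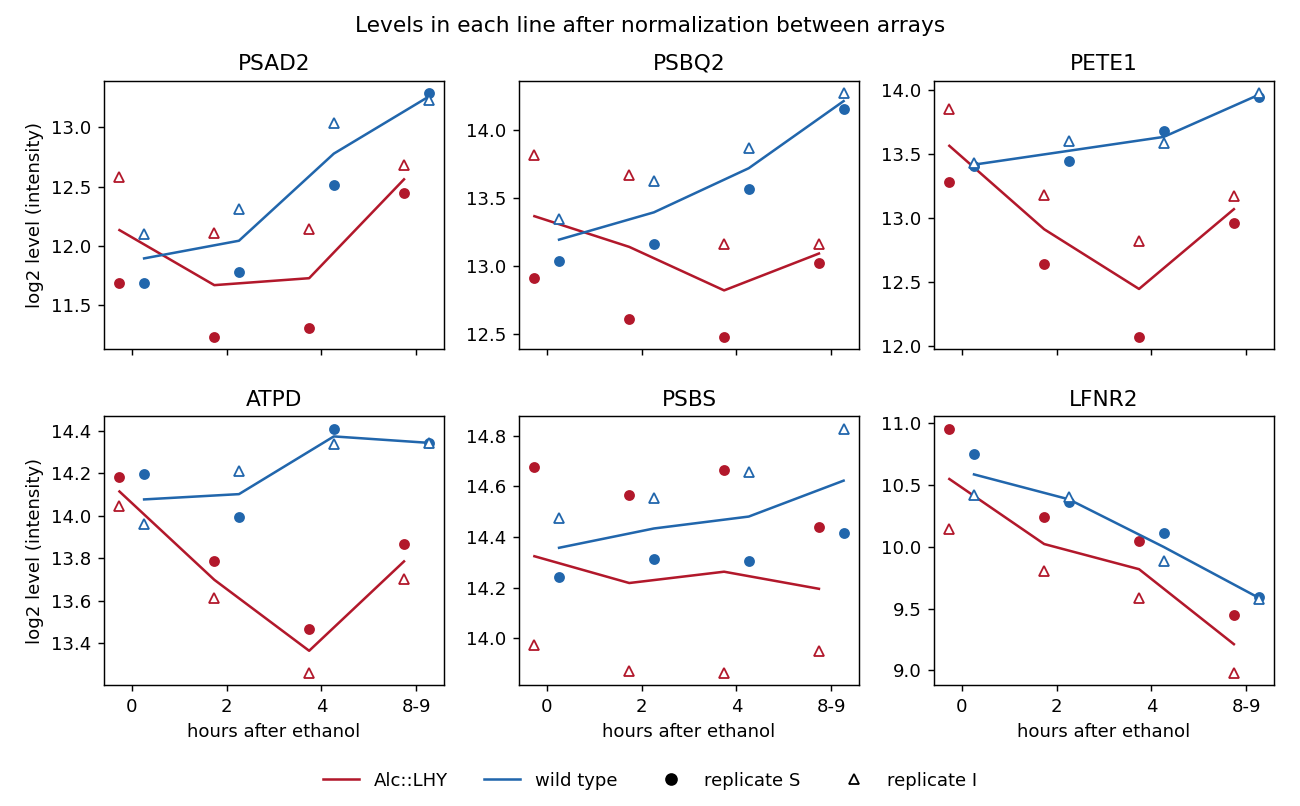
Log2 level of 6 genes in Alc::LHY (red, left of each time) and wild type (blue, right) over the hours after ethanol, each panel with its own axis. Circles are replicate S, triangles replicate I, and lines join the means of the 2 arrays. PSAD2 and PSBQ2 climb in wild type, PETE1 and ATPD dip in Alc::LHY at 4 h, and LFNR2 falls in both lines.

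**Figure D3:**
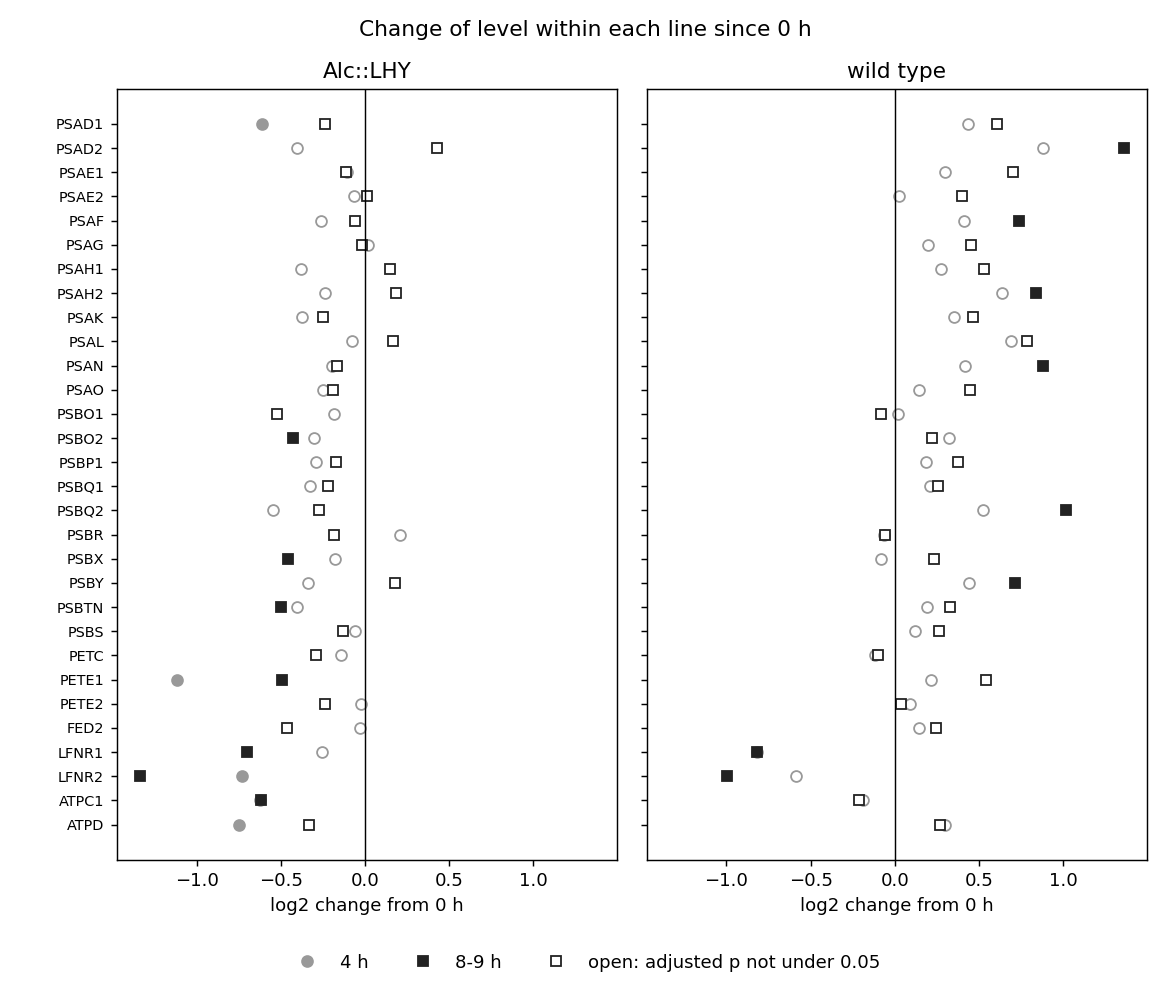
Log2 change of level from 0 h within Alc::LHY (left) and within wild type (right) for 30 genes, at 4 h (grey circles) and 8-9 h (black squares). Filled symbols have an adjusted p under 0.05. In Alc::LHY the filled symbols all lie left of 0, and in wild type 6 lie right of 0 and the LFNR genes left of it.

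The change of the line ratio since 0 h was tested in the same fit as a difference between times. At 4 h, 9 members had fallen relative to 0 h, against 10.5% of all genes, and 9 at 8-9 h, against 11.9% of all genes. PETE1 (-1.33 ± 0.18), PSAD2 (-1.29 ± 0.13), PSBQ2 (-1.07 ± 0.18), ATPD (-1.05 ± 0.16) and PSAD1 (-1.04 ± 0.24) led at 4 h. At 8-9 h PSBQ2 (-1.29 ± 0.18), PSAN (-1.05 ± 0.16) and PETE1 (-1.04 ± 0.18) led. No member was called between 0 and 2 h (limma, 4.13% of all genes called, 4 members at an unadjusted p under 0.05), between 2 and 4 h (0.102% of all genes, 9 members) or between 4 and 8-9 h (0% of all genes, 5 members). Neither PSBR nor LFNR1 was called in a contrast with 0 h. The count of members that fell at any time was 12 with all arrays, while 14.1% of all genes fell. That count was 4 without replicate I of 0 h, and 7 without replicate S of 0 h or without either array of 2 h.

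The members are among the brightest spots of the array, where other genes of like brightness also had ratios below 0 at 8-9 h. Their median log2 intensity was 14.84, against 8.34 for all genes, and 30 of 31 were in the top 10% by intensity. At or above a log2 intensity of 14 lay 23 members and 294 other genes. On the replicate I array of 8-9 h those other bright genes had a median ratio of -0.41, and on replicate S 0.06. In the fit their median was -0.20 at 8-9 h and -0.01 at 4 h, against -0.47 and -0.28 for the 23 members. Of the other bright genes 28.2% were called lower at 8-9 h and 26.5% at 4 h, against 14 and 10 of the 23 members. The 8 members below that brightness had a median of -0.81 at 4 h, with 6 called lower and 1 higher, and -0.53 at 8-9 h with 7 lower, where the other genes of that range stood at -0.01 at both times. Of those other genes 19.3% were called lower at 4 h and 19.8% at 8-9 h. Many of them are dimmer than any member, since the dimmest member lay at 10.02. With the scanner software's own ratios 13 members were lower at 4 h and 5 at 8-9 h (PSAD1, PSAD2, PSAN, PSBQ2 and PETE1), all of them among those called with loess. Of all 21471 genes, those ratios called 3757 lower at 4 h and 3657 at 8-9 h. By count, the 5 of 31 members at 8-9 h are near that share of all genes. The part of brightness in the 8-9 h counts was not tested.

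**Figure D4:**
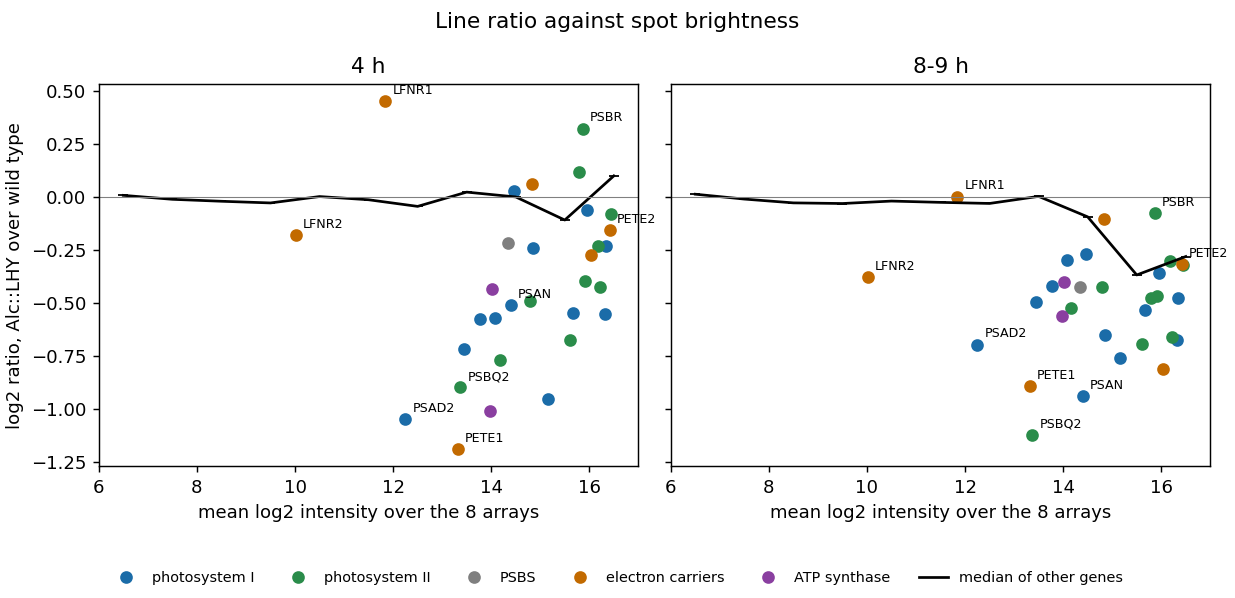
Fitted log2 ratio of Alc::LHY over wild type at 4 h and 8-9 h against the mean log2 intensity over the 8 arrays. Points are the 31 genes coloured by role, and the black line is the median of all other genes in steps of 1 log2 unit, drawn where a step holds 20 or more genes. At 4 h the line stays near 0 up to the brightest spots, and at 8-9 h it drops below 0 above a log2 intensity of 14.

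Several probes were available for 22 of the 31 genes. Of the 81 probes, 61 were below 0 at 4 h and 77 at 8-9 h, with medians of -0.36 and -0.48. PSAD2's 3 probes agreed closely at 4 h, between -1.05 and -1.17, and PSBQ2's 2 probes gave -0.90 and -0.94. At 4 h the probes of PSAD1, PSBS, PSBW, PSBY and FED2 fell on both sides of 0. For PSAD1 and PSBW the probe above 0 was the dimmest of the gene and near 0, at 0.03 each. For PSBY and FED2 a single other probe of each gave 0.85 and 1.04, and at 8-9 h the same probes gave -0.35 and -0.57. Both probes were called higher at 4 h in the fit over probes (adjusted p = 0.0201 and 0.0183), and neither was called at 8-9 h. Which transcript part each probe reads was not analysed here.

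**Figure D5:**
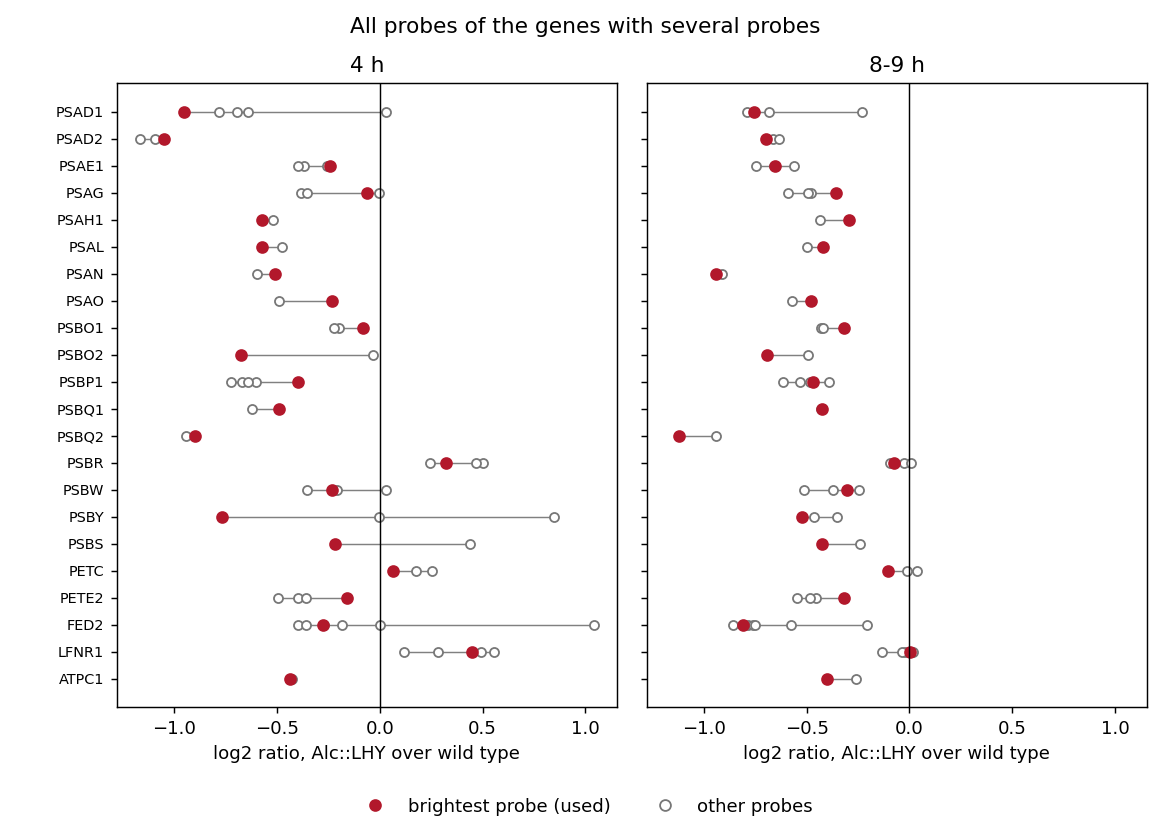
Fitted log2 ratio of Alc::LHY over wild type at 4 h and 8-9 h for every probe of the 22 genes with several probes. The filled point is the brightest probe, which stands for the gene, and open points are its other probes. Most genes keep their probes together, while PSBY, PSBS and FED2 spread to both sides of 0 at 4 h.

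Other genes of photosynthesis were counted from lists by function. Of 11 regulators of photosynthesis genes, 2 were called lower at 2 h, 6 at 4 h and 7 at 8-9 h, with none higher and a median of -0.46 at 4 h, while 7.82%, 19.4% and 20% of all genes were lower. GLK2 (AT5G44190), a GOLDEN2-like activator of photosystem and antenna genes, had a ratio of -1.38 ± 0.15 at 2 h (adjusted p = 0.00277), -1.28 ± 0.15 at 4 h (adjusted p = 0.00144) and -1.06 ± 0.15 by 8-9 h (adjusted p = 0.00264). GNC (AT5G56860), a GATA factor of chloroplast development, gave -1.22 ± 0.18 at 2 h (adjusted p = 0.0074) and the same ratio by 4 h (adjusted p = 0.0032). HY5 (AT5G11260), a bZIP factor of light responses, gave -0.66 ± 0.11 at 4 h (adjusted p = 0.00457). The 6 green tissue markers, all nuclear genes of photosynthesis themselves, had 5 lower at 4 h, led by the antenna gene LHB1B1 (AT2G34430, -2.72 ± 0.26) and CAB2 (AT1G29920, -1.80 ± 0.22).

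Of 18 other nuclear electron transport genes, 4 were lower and 3 higher at 4 h and 5 lower and 4 higher at 8-9 h, with medians of -0.10 and -0.15. For this and the following lists, the shares of all genes at 4 h were 19.4% lower and 17.3% higher, and at 8-9 h 20% lower. PSB27 (AT1G03600), a photosystem II repair factor, was -0.95 ± 0.13 at 4 h, FD1 (AT1G10960), the minor leaf ferredoxin, -0.61 ± 0.12, and ATPC2 (AT1G15700), another gamma subunit gene, 0.45 ± 0.10. Of 7 genes of the NDH complex, which returns electrons to the chain around photosystem I, 2 were lower and 1 higher at 4 h (NdhM, AT4G37925, -0.68 ± 0.13, NdhS, AT4G23890, -0.43 ± 0.10, and NdhO, AT1G74880, 0.54 ± 0.11). Of 14 assembly factors 2 were lower at 4 h (AT1G22700, -0.60 ± 0.11, and HCF101, AT3G24430, -0.32 ± 0.09) and 1 was higher (EDA3, AT2G34860, 0.45 ± 0.10), with a median of -0.03. Of 7 thylakoid kinase, phosphatase and curvature genes only TAP38 (AT4G27800), which removes phosphate from antenna proteins, was called at 4 h (0.38 ± 0.10, adjusted p = 0.0314). At 8-9 h, 3 NDH genes, 3 assembly factors and 1 kinase or curvature gene were lower and none was higher, against 20% of all genes lower, with medians of -0.34, -0.12 and -0.04. Of 13 plastid-encoded partners, 0 were matched to a probe here.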

How the data were processed

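Each of 8 Agilent arrays was read by the authors in 2 dyes. Per the file headers and the submitters' processing notes, the scanner files come from Agilent Feature Extraction 10.7.3.1. The deposited median spot and background signals are intensity values on a linear scale. The deposited log ratios of the scanner files and of the authors' matrix are log10 values. Set against the scanner values, the matrix ratios had the opposite sign on replicate I, so all run as Alc::LHY over wild type.

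Intensities were corrected with normexp (offset 50) and normalized by loess within each array. Control spots had weight 0, and 161 spots with an outlier flag were left out. A probe was kept if well above background in either dye on at least 2 arrays, with values on at least 6, and a gene was represented by its brightest probe. R 4.3.3 was used with statmod 1.5.0, limma 3.58.1 and, for reading files, the package data.table (version 1.17.8). The limma model held 4 times and a dye term and had 3 residual and 3.59 prior degrees of freedom. The dye term is also the replicate block. For levels within each line, the 16 single channels were Aquantile-normalized and fitted together (21412 genes, intraspot correlation 0.336). The number of arrays limits the precision. On simulated arrays with 200 of 21412 genes changed by 1 log2 unit at 4 h, the ratio fit called 66% of them with 5 unchanged genes called, and the Alc::LHY level fit 23.5% with 1. Far more genes were called in the data at 4 h (19.4% lower and 17.3% higher in the ratio fit). The adjusted p depends on that share, so the simulated rates do not give the sensitivity of the fits to the data.

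The text gives every locus by role, with each array's value for the locus of smallest p at 4 h in each role and for paralogue pairs, and for other lists up to 3 genes of smallest p at 4 h. A few members and probes beyond that were described after their values were seen, as was the brightness limit. The members and lists were chosen with earlier results of these data known. Locus names come from the RefSeq gene table given for TAIR10.1, and no genome or probe sequences were used here.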

Additional observations from a re-analysis of the deposited data

Results flagged for a closer look

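The ratio of Alc::LHY over wild type differed between a time after ethanol and 0 h for 12 of the 31 genes, by the contrast of the times itself (limma, Benjamini-Hochberg adjusted over all genes). In all 12 the ratio had fallen, while it had in 14.1% of all genes. At 4 h relative to 0 h the difference was -1.33 for PETE1 (adjusted p = 0.0071), -1.29 for PSAD2 (0.00335), -1.07 for PSBQ2 (0.0118), -1.05 for ATPD (0.0085), -1.04 for PSAD1 (0.0308), -0.87 for PSAH2 (0.0117), -0.78 for PSBY (0.0305), -0.77 for PSAL (0.0325) and -0.62 for PSAN (0.0483). At 8-9 h relative to 0 h it was -1.29 for PSBQ2 (0.00709), -1.05 for PSAN (0.0098), -1.04 for PETE1 (0.0129), -0.93 for PSAD2 (0.00707), -0.83 for PSBTN (0.0409), -0.81 for PSAE1 (0.0484), -0.69 for PSBX (0.0337), -0.65 for PSAH2 (0.0261) and -0.60 for ATPD (0.0421), with adjusted p in parentheses. All 18 differences are negative. With 2 arrays per time no value could be tested as an outlier within its group.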

How the results depend on the processing

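In the ratio fit, 41 calls of single members (2 at 2 h, 18 at 4 h, 21 at 8-9 h) were recomputed. Median centring in place of loess kept 1 of them (PETE1 at 4 h) and gave 0, 1 and 0 members lower at 2, 4 and 8-9 h, 0 higher at 4 h and 0 with a fallen ratio since 0 h, with medians of -0.70 at 2 h and -0.80 at 4 h; it gave PSBR -0.10 at 4 h. That scaling moved the median of all genes to -0.12, -0.10 and 0.11 at 2, 4 and 8-9 h and the share of higher genes among all calls to 23.7% at 4 h and 76.1% at 8-9 h, against 47.2% and 45.7% with loess; relative to all genes the members then stood at -0.70 at 4 h and -0.49 at 8-9 h. Of all 21471 genes, median centring called 0, 1101 and 68 lower at 2, 4 and 8-9 h. The scanner's ratio and the authors' matrix, which gave equal counts of members, kept 19 of 41 calls, with 1 member lower at 2 h, 5 at 8-9 h, 0 higher at 4 h, 6 with a fallen ratio and PETE2 at 0.039 at 8-9 h. The scanner's ratio called 1899 of all genes lower at 2 h and 3657 at 8-9 h. Averaging each gene's probes left 1 higher at 4 h and PSBY at 0.027. Removing the background correction or the dim filter, or a stricter filter, kept 39 to 41. No normalization between arrays left 4 members lower within Alc::LHY in place of 9, and 2 changed within wild type in place of 8.

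Without the replicate block, 0, 12 and 11 members were lower at 2, 4 and 8-9 h, 0 higher at 4 h, 5 lowered within Alc::LHY and 2 changed within wild type. Of all 21471 genes, 1305, 3475 and 3706 were then lower at 2, 4 and 8-9 h. Deviations of replicate S from the time means correlated at -0.02 to 0.60 between times. Replicate and dye orientation are the same split, so these values cannot tell whether the replicate letters pair the times.

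Leaving out single arrays gave 0 to 1 members lower at 2 h, 5 to 15 at 4 h and 1 to 20 at 8-9 h, 0 to 2 higher at 4 h, 4 to 14 with a fallen ratio, 4 to 8 lowered in Alc::LHY and 1 to 7 changed in wild type; the intraspot correlation was then held at its full value. None was called at 0 h in any of these settings. The cause of these losses was not tested.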
